A study of Mus musculus with 16 samples.

Results

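Sets of 8 libraries of mouse osteoclast cultures were compared for the loss of Ptprc, the gene of the receptor tyrosine phosphatase CD45: the 8 libraries whose labels name a Ptprc knockout were set against the 8 whose labels do not, out of 16 libraries in all. The members were chosen by genotype label alone. RNA came from C57BL/6J bone marrow cells positive for CD11b, cultured for 3 days in M-CSF at 50 ng/ml and then with RANKL at 20 ng/ml, and it was taken between day 3 and day 5, when mature osteoclasts first appeared. The set without CD45 holds 4 Ptprc KO libraries and 4 FLT3 ITD Ptprc KO libraries (the double mutant), and the set with CD45 holds 4 WT and 4 FLT3 ITD libraries. FLT3 ITD is a knock-in of an internal tandem duplication of Flt3, so each set carries it in 4 libraries, and FLT3 ITD status was a term of the model. The growth protocol also mentions AC220, an inhibitor of FLT3, for inhibition experiments; no label here names it for any of the 16 cultures. The design text states 24 samples, whereas the 4 groups it lists hold 16. The age and sex of the mice and the construction of the Ptprc allele are not given in the sources used here, nor is it stated that replicates came from separate animals, so p-values reflect only variation among these cultures, which may be technical.

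CD45 spans the membrane of all nucleated blood cells and removes phosphate from tyrosines, among them the inhibitory tail tyrosine of Src-family kinases, which it thereby holds ready for activation. Osteoclasts are the bone-resorbing cells of the myeloid lineage. They form by fusion of precursors under M-CSF and RANKL, and they rely on the kinase Src, on receptors that signal through ITAM adaptors, on a proton pump and on the protease cathepsin K.

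Library totals were 24211724 to 35773313 counts, and 12093 of 21936 genes passed the count filter. The osteoclast markers were high in every library: the summed level of 9 of them (cathepsin K, Acp5 and others) lay between 15695 and 54731 CPM (counts scaled to a common library total) with CD45 and between 8389 and 63558 CPM without it. FLT3 ITD replicate 4 (15695 CPM) and double-mutant replicate 3 (45901 CPM) stood apart from their groups, whose other libraries held 47756 to 54731 CPM and 8389 to 10169 CPM. Summed markers of monocytes and macrophages ranged from 4956 to 29310 CPM with CD45 and from 4923 to 28110 CPM without it. Stromal markers (12 listed, 6 measured) summed to at most 48.3 CPM, and the B cell markers to at most 3.79 CPM. FLT3 ITD replicates 1 and 3 were far closer in counts than any other pair of one group (chi-square per gene 2.77). The next pair was Ptprc KO replicates 2 and 3 (13.04), followed by WT replicates 1 and 4 (39.6). FLT3 ITD replicate 2 had levels related to gene length (Spearman rho -0.46 over genes). In bulk RNA, fewer cells of a type and less RNA per cell cannot be told apart.

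Loss of CD45 left 1 gene past the threshold over the 8 against 8 libraries, Ptprc itself. Ptprc (ENSMUSG00000026395; GRCm38 chromosome 1, 138062861 to 138175708) ranged from 230 to 542 CPM with a median of 440 CPM in the set with CD45, and from 30.8 to 86.7 CPM with a median of 50.0 CPM in the set without it. The ranges did not overlap, and mean CPM without CD45 was 12.1% of that with it. The edgeR quasi-likelihood model put the log2 fold change at -3.09 (SE 0.21), with a Benjamini-Hochberg adjusted p = 2.25e-06. It fell by 3.55 on the log2 scale against WT and by 2.63 against FLT3 ITD, and the difference between these had an unadjusted p of 0.011 (adjusted p = 0.255 in the same edgeR test). That 1 call among 12093 genes is 0.00827% of them. No gene rose: edgeR called 0 genes higher, and of the 192 genes with an unadjusted p under 0.05 (1.59% of those tested, where uniform p-values would give 605), 90 were higher and 102 lower. That count of 192 was 466 without Ptprc KO replicate 3, 413 without Ptprc KO replicate 2, 290 without WT replicate 3 and 118 without double-mutant replicate 4. The next smallest adjusted p was 0.466. DESeq2 called 4 genes higher and 9 lower, and limma voom with sample quality weights 7 and 5, with 8 genes in common (61.5% of the DESeq2 calls and 66.7% of the voom calls).

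**Figure D1:**
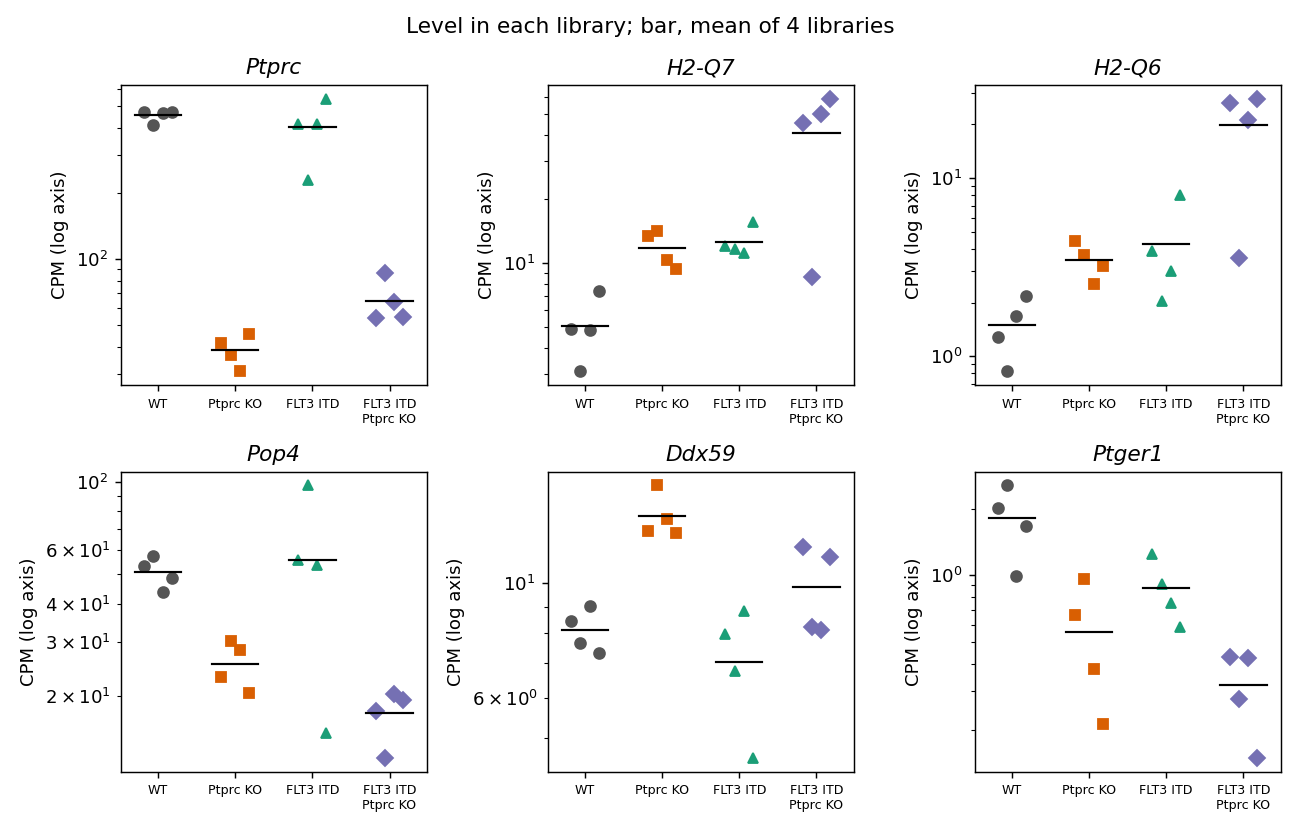
Level of 6 genes in each of the 16 libraries, in CPM on a log axis, by group; points are libraries and bars the mean of 4. Ptprc separates all 8 libraries without CD45 (30.8 to 86.7 CPM) from the 8 with it (230 to 542 CPM), and the other 5 genes overlap between the sets of 8.

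Genes changed the same way in both Flt3 backgrounds were counted next, since the 4 against 4 comparison within WT and that within FLT3 ITD share no library. Genes with the same sign and an unadjusted p under 0.05 in each background numbered 14 (0.116% of those tested), 9 lower and 5 higher, and 18 more genes passed in each with opposite signs. Such a p was held by 0.843% of genes within WT and by 25.7% within FLT3 ITD, so genes would pass in each without a shared effect. The 14 of the same sign did not outnumber the 18 of opposite signs. Whether 14 is more than those shares alone would give was not tested, so the count does not show a shared effect. The count of 14 was 9 without WT replicate 1 or without Ptprc KO replicate 4. Among the 14, only Ptprc passed the adjusted threshold of the edgeR model. The 9 lower genes were Ptprc, Pop4, Ptger1, Glrp1, Ulk4, Sptbn4, Snx22, Acat3 and ENSMUSG00000090625, and the 5 higher ones H2-Q7, H2-Q6, Ddx59, Batf2 and Gpr141b. Sptbn4, Snx22, Acat3, Gpr141b and ENSMUSG00000090625 lie outside the naming rule and are given after their values had been seen.

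The class I-like genes H2-Q7 and H2-Q6 had higher levels without CD45 in both backgrounds. They encode nonclassical relatives of MHC class I (Qa-2 antigens), which lie beside each other on chromosome 17. Their upstream sequences are shown because both genes were higher in both backgrounds: each holds the 250 bases before the annotated start (RefSeq, GRCm38.p6, plus strand), with GGGATTCCC (a motif of the NF-kB type) and TTTCACTTC (of the interferon-response type) in capitals. Both motifs were chosen with these sequences in view.
H2-Q6, chr17:35424600-35424849: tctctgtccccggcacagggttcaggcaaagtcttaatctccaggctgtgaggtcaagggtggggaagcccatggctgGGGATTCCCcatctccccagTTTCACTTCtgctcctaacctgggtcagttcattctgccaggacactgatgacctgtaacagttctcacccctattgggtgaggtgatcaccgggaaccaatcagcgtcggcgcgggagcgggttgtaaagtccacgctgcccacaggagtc
H2-Q7, chr17:35438905-35439154: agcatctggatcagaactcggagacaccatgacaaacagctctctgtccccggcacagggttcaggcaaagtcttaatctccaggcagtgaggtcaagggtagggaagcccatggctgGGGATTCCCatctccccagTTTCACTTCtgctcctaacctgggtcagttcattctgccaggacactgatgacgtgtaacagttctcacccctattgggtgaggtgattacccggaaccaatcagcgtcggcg
The 2 windows aligned over 210 bases, of which 97.6% were identical. Searched on both strands of the same windows of 32851 promoters, GGGATTCCC was in 0.301% and TTTCACTTC in 0.402%, and 0.0152% held both. A match is a description of these letters, not a site.

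H2-Q7 (chromosome 17, 35439155 to 35443773) stood at 4.91, 3.10, 4.84 and 7.39 CPM in the WT libraries and at 13.4, 14.1, 10.3 and 9.36 CPM in Ptprc KO. FLT3 ITD libraries held 12.03, 11.6, 11.1 and 15.5 CPM, and double-mutant libraries 45.3, 8.57, 49.9 and 59.1 CPM. The groups did not overlap in the WT background, whereas double-mutant replicate 2 lay below every FLT3 ITD library. The log2 fold change was 1.46 (SE 0.30, adjusted p = 0.466 in the edgeR test; DESeq2 0.0022, voom 0.0052), and without double-mutant replicate 2 the edgeR call was made.

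H2-Q6 (chromosome 17, 35424850 to 35430055) held 1.28, 0.822, 1.68 and 2.17 CPM in WT and 4.42, 3.68, 2.53 and 3.21 CPM in Ptprc KO. In FLT3 ITD it held 3.92, 2.04, 3.00 and 8.03 CPM, and in the double mutant 26.5, 3.56, 21.3 and 27.9 CPM. Again double-mutant replicate 2 lay within the FLT3 ITD range and the other 3 lay above it. The log2 fold change was 1.74 (SE 0.40, adjusted p = 0.65 in edgeR; DESeq2 0.0097, voom 0.0052), and the transcripts of the 2 genes share 13.9% of the 50-base windows of H2-Q6, so reads could be split between them. Other class I genes, chosen after their values were seen, had smaller log2 fold changes over the 8 against 8 libraries: H2-K1 0.23, H2-D1 0.16 and B2m, the class I light chain, 0.21. Some of them differed more in the FLT3 ITD background than in WT. H2-Q4 had 0.63 in all, with -0.01 in WT and 1.27 in FLT3 ITD (unadjusted p = 0.012, adjusted p = 0.13 in edgeR), H2-M2 0.72, with -0.22 and 1.65, and H2-T24 0.50, with -0.17 and 1.16. For the interaction their adjusted p in edgeR was 0.29, 0.33 and 0.36. H2-M2 held 3.85, 3.25, 3.78 and 27.1 CPM in FLT3 ITD and 20.3, 71.6, 14.1 and 13.3 CPM in the double mutant. Tap2 (0.27 in WT, -0.94 in FLT3 ITD), H2-Q10 (1.45, -1.15), Tap1 (0.29, -0.07) and H2-T23 (0.11, -0.14) went the other way.

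Pop4, a protein subunit of the ribonucleases P and MRP that process tRNA and rRNA precursors, was lower without CD45 in both backgrounds (chromosome 7, 38261996 to 38271423). It stood at 53.0, 57.2, 43.5 and 48.6 CPM in WT and at 23.1, 30.2, 28.3 and 20.4 CPM in Ptprc KO. FLT3 ITD libraries held 55.4, 97.2, 53.5 and 15.1 CPM, and double-mutant libraries 17.9, 12.5, 20.2 and 19.4 CPM. FLT3 ITD replicate 4 was the only FLT3 ITD library within the double-mutant range. The additive log2 fold change was -1.32 (SE 0.27; adjusted p = 0.466 in edgeR, 0.0022 in DESeq2 and 0.0051 in voom), and it passed the edgeR threshold when FLT3 ITD replicate 4 was left out.

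Ptger1, encoding the EP1 receptor for prostaglandin E2, was lower at low levels (chromosome 8, 83666678 to 83672753). It held 2.005, 2.55, 0.996 and 1.67 CPM in WT against 0.661, 0.963, 0.378 and 0.214 CPM in Ptprc KO, and 1.25, 0.909, 0.750 and 0.583 CPM in FLT3 ITD against 0.429, 0.277, 0.423 and 0.150 CPM in the double mutant. The 4 libraries lay below the other 4 in each background, though the sets of 8 overlapped. The log2 fold change was -1.58 (SE 0.33, adjusted p = 0.466 in edgeR, 0.0022 in DESeq2 and 0.092 in voom). No source used here says whether counting used strand, so reads from the opposite strand could be counted with Ptger1. The same limit applies to other genes here that overlap a gene of the opposite strand, among them Ulk4 (Ctnnb1) and Batf2 (Arl2).

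Lower values in both backgrounds were also seen for Ulk4 and Glrp1. Ulk4, a kinase-like gene, held 0.541 to 1.67 CPM with CD45 and 0.330 to 0.832 CPM without it (log2 fold change -0.91, SE 0.23, adjusted p = 0.874 in edgeR, 0.041 in DESeq2 and 0.013 in voom). Glrp1, which encodes a glutamine-repeat protein, had 248 counts over the 4 WT libraries and 1 over the 4 Ptprc KO libraries, a ratio of 221 (95% interval 39.4 to 8777, counting error only), and 310 against 72 counts in the FLT3 ITD background. Its edgeR adjusted p was 0.491 over the 8 against 8 libraries (DESeq2 0.00011, voom 0.012), and 0.022 within WT.

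Among the higher genes, Ddx59 encodes a DEAD-box RNA helicase and Batf2 a bZIP transcription factor induced by interferon. Ddx59 stood at 8.43, 7.66, 9.03 and 7.32 CPM in WT and at 12.7, 15.5, 13.3 and 12.5 CPM in Ptprc KO. FLT3 ITD libraries held 7.96, 6.76, 8.85 and 4.58 CPM, and double-mutant libraries 11.8, 8.23, 8.11 and 11.2 CPM. The sets of 8 overlapped between 8.11 and 9.03 CPM, and the log2 fold change was 0.61 (SE 0.14, adjusted p = 0.65 in edgeR, 0.028 in DESeq2 and 0.026 in voom). Batf2 ranged from 2.06 to 5.04 CPM with CD45 and from 3.18 to 8.53 CPM without it (log2 fold change 0.58, SE 0.17, adjusted p = 0.874 in edgeR).

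Complete separation of the sets of 8 was seen for 3 genes (0.0248% of those tested): Ptprc and Sptbn4, a spectrin gene, lower, and Zfp664, a zinc finger gene, higher. With this many genes tested, a few could separate by the order of the libraries alone, which was not tested. Zfp664 held 31.3 to 45.0 CPM with CD45 and 45.1 to 53.8 CPM without it, a log2 fold change of 0.23 (SE 0.08), and Sptbn4 0.284 to 0.541 CPM against 0.143 to 0.277 CPM. Separation of 4 from 4 the same way in each background was seen for 7 genes (0.0579%), with Ptger1 also lower and Fam20b, Rnf6 and Cdh5 also higher, and for 8 genes in opposite ways. Within WT alone 170 genes were so separated and within FLT3 ITD alone 1024, so genes would separate in both without a shared effect. The 7 did not outnumber the 8 of opposite ways. Except for Ptprc, none of the genes named in this paragraph passed the edgeR threshold, and those other than Ptprc, Ptger1 and Cdh5 were picked with their values in view.

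Several genes with low p rested mostly on 1 background. Akr1c12, an aldo-keto reductase gene, was at 12.1 to 20.1 CPM in WT and 1.93 to 2.80 CPM in Ptprc KO, but at 1.75 to 9.74 CPM in FLT3 ITD against 1.83 to 4.17 CPM in the double mutant. Ugt1a8, a glucuronosyltransferase gene sharing exons with its neighbours, had 0 counts over WT and 231 over Ptprc KO, at least 86.3-fold higher taken against 3 counts over the group, whereas in the FLT3 ITD background 34 counts stood against 2, all 34 in double-mutant replicate 3. Cdh13, encoding T-cadherin, was lower in the FLT3 ITD background (1.54 to 3.01 CPM against 0.210 to 0.586 CPM) and had 9 and 4 counts in all over WT and Ptprc KO. Over the 8 against 8 libraries the adjusted p in DESeq2 and voom was 0.0022 and 0.35 for Akr1c12, 0.014 and 0.037 for Ugt1a8, and 0.00069 and 0.30 for Cdh13. Sec16b (adjusted p = 0.042 in DESeq2), Dach1, Serpinh1 and Abl2 were lower, and Ipo9, Slc9a3r2, Arhgap6 and Zfp281 higher, each with an adjusted p of 0.874 in edgeR. Their same sign in both backgrounds was a condition of the naming rule.

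The effects of CD45 loss in the 2 backgrounds mostly pointed in opposite directions. Of 12093 genes, 8709 (72.0%) had opposite signs, 4531 of them higher in Ptprc KO against WT and lower in the double mutant against FLT3 ITD, and 4177 the reverse. Both effects were positive for 2112 genes and negative for 1272. Pearson's r between the 2 effects was -0.36 and Spearman's rho -0.57 over genes (not independent replicates), and over the 8588 genes of at least 10 CPM Pearson's r was -0.62. Without Ptprc KO replicate 3 the share of opposite signs was 58.4% and Pearson's r -0.087, and without Ptprc KO replicate 2 they were 62.4% and -0.15. Those 2 libraries were close to each other in counts, as given above, and no fit left out both. Without WT replicate 3 the share and r were 63.6% and -0.18, and without WT replicate 2 they were 74.5% and -0.44. With no count filter Pearson's r was -0.096.

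**Figure D2:**
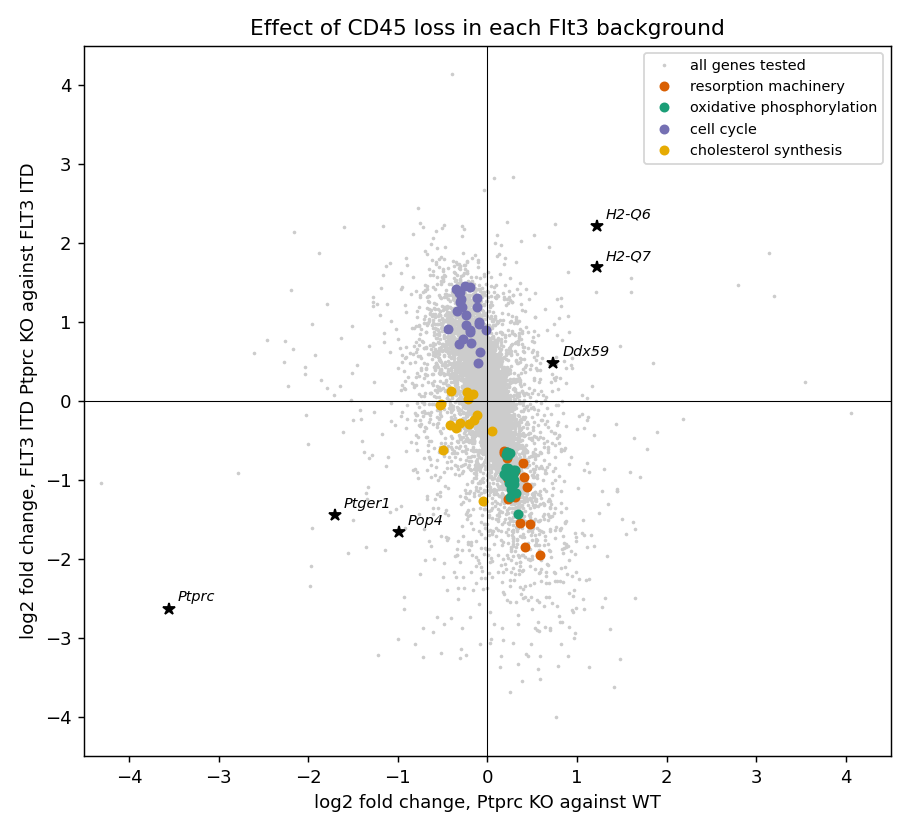
Log2 fold change of CD45 loss in the WT background (x axis) and in the FLT3 ITD background (y axis) for the genes tested, of which 5 lie outside the axes; colours mark 4 lists and stars 6 named genes. Resorption and oxidative phosphorylation genes lie at the lower right and cell cycle genes at the upper left, while Ptprc, Pop4 and Ptger1 are low, and H2-Q6, H2-Q7 and Ddx59 high, on both axes.

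The 2 backgrounds also differed in the number of genes that passed. Within WT, 4 genes passed the adjusted threshold (0.0331%; Ptprc, Glrp1, Rbm44 and Stard13) and 102 had an unadjusted p under 0.05 (0.843%), and within FLT3 ITD only Ptprc passed while 3104 had an unadjusted p under 0.05 (25.7%). The 102 became 56 without Ptprc KO replicate 3 and 172 without Ptprc KO replicate 4, and the 3104 became 1750 without FLT3 ITD replicate 2 and 4701 without FLT3 ITD replicate 4. When only the 8 libraries of the FLT3 ITD background were fitted, 0 genes passed in edgeR, Ptprc included (adjusted p = 0.164). The interaction was called for 1 gene, Rbm44, which had 86 counts over WT, 1 over Ptprc KO and 44 over FLT3 ITD (adjusted p = 0.031, edgeR), and 2120 genes had an unadjusted p under 0.05. In 12 of the 16 fits that left out 1 library, 0 genes were called for the interaction. Within WT, 2 genes passed without WT replicate 4 and 7 without double-mutant replicate 3. Leaving out FLT3 ITD replicate 4 brought the calls within FLT3 ITD to 1798, leaving out double-mutant replicate 3 brought them to 1315, and leaving out double-mutant replicate 2 or 4 to 2. Leaving out both FLT3 ITD replicate 4 and double-mutant replicate 3 gave 4058, while over the 8 against 8 libraries the latter left 1 gene higher and 3 lower. Rbm44 and Stard13 were picked with their values in view.

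Resorption genes, which encode the acid pump and proteases that degrade bone, had opposite signs in the 2 backgrounds, as 72.0% of all genes did. All 15 measured had a negative log2 fold change over the 8 against 8 libraries (median -0.33, against 0.02 over all genes tested, 53.2% of which were positive), with 0 called. All 15 were positive in the WT background (median 0.31) and negative in the FLT3 ITD background (median -0.99). Ctsk, cathepsin K, had log2 fold changes of 0.42 (SE 0.60) and -1.85 (SE 0.62), and Atp6v1b2, a proton pump subunit, 0.24 (SE 0.38) and -1.24 (SE 0.39). The list's mean log2 CPM was 9.98, 10.2, 9.90 and 10.1 in WT, and 9.80, 10.9, 10.8 and 9.72 in Ptprc KO. It was 10.6, 10.7, 10.6 and 9.20 in FLT3 ITD, and 8.49, 8.78, 10.2 and 8.57 in the double mutant. Ptprc KO replicates 2 and 3 lay above every WT library and replicates 1 and 4 below every one. The median in WT was 0.14 without Ptprc KO replicate 2 and 0.19 without replicate 3. FLT3 ITD replicate 4 was low and double-mutant replicate 3 high within their groups, as in the osteoclast markers above, and the part of those libraries in the result was not tested.

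**Figure D3:**
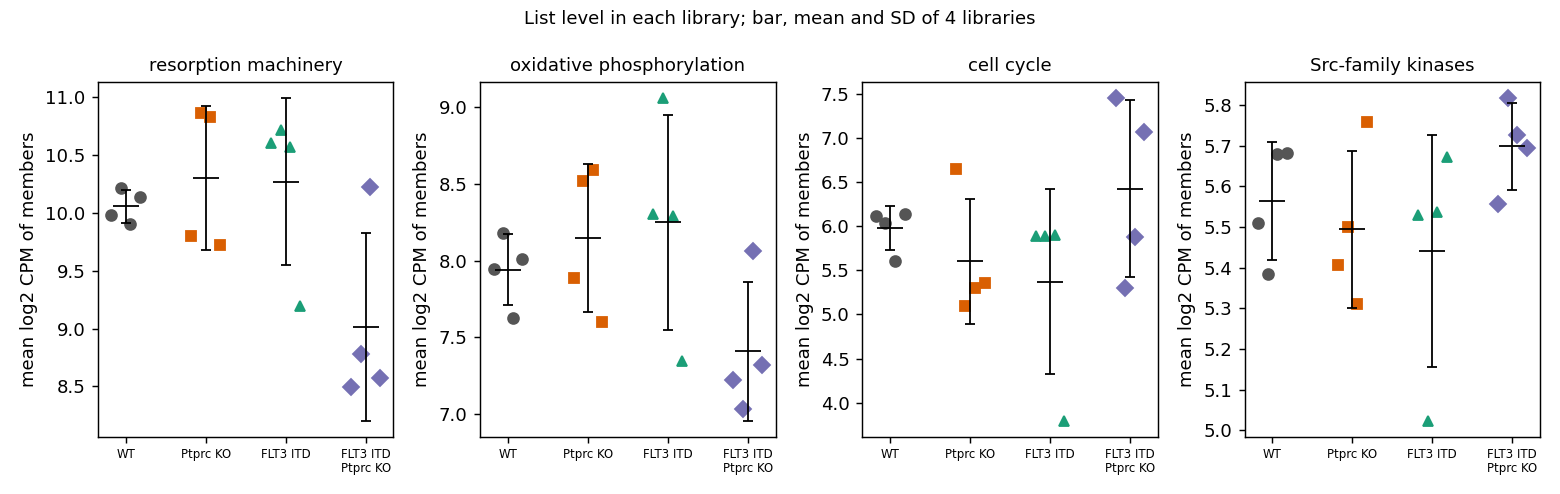
Mean log2 CPM of the measured members of 4 lists in each library, by group; points are libraries and bars the mean with SD of 4. Resorption and oxidative phosphorylation levels are lowest in 3 double-mutant libraries, and FLT3 ITD replicate 4 lies apart from the other 3 FLT3 ITD libraries in resorption and cell cycle genes.

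Oxidative phosphorylation genes had the same signs and cell cycle genes the reverse, each with 0 called. All 24 oxidative phosphorylation genes were negative over the 8 against 8 libraries (median -0.32), positive in WT (0.25) and negative in FLT3 ITD (-0.92). Their mean log2 CPM was 7.95, 8.18, 7.63 and 8.01 in WT and 7.89, 8.52, 8.59 and 7.60 in Ptprc KO, so that only Ptprc KO replicates 2 and 3 lay above the WT range. The median in WT was 0.12 without Ptprc KO replicate 2, 0.096 without replicate 3 and 0.15 without WT replicate 3, and the median in FLT3 ITD was -0.58 without FLT3 ITD replicate 2. Ndufb3, a subunit of complex I, went from 85.9 to 61.4 mean CPM (log2 fold change -0.48, SE 0.32). With FLT3 ITD replicates 1 and 3 summed and replicate 2 left out, the median of the list was -0.03. All 24 cell cycle genes were positive (median 0.44), negative in WT (-0.24) and positive in FLT3 ITD (1.05). Their mean log2 CPM was 5.890, 5.888, 5.899 and 3.797 in FLT3 ITD and 7.448, 5.301, 5.876 and 7.070 in the double mutant. Double-mutant replicates 2 and 3 thus lay below FLT3 ITD replicates 1, 2 and 3. The cell cycle median in FLT3 ITD was 0.803 without FLT3 ITD replicate 4. With 1 library left out it ranged from 0.688 (double-mutant replicate 1) to 1.316 (double-mutant replicate 2). The cell cycle median in WT was -0.81 without Ptprc KO replicate 1, which lay above every WT library, and -0.071 without Ptprc KO replicate 2. Mcm2, of the replicative helicase, went from 61.5 to 84.9 mean CPM (log2 fold change 0.45, SE 0.26).

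The Src-family kinases and their regulators, which CD45 acts on in blood cells, differed in sign between the backgrounds. All 10 measured genes had opposite signs there, beside 72.0% of all genes tested, and 0 were called. Their median was -0.06 in WT and 0.55 in FLT3 ITD. Mean log2 CPM of the list was 5.51, 5.38, 5.68 and 5.68 in WT and 5.41, 5.50, 5.31 and 5.76 in Ptprc KO. In FLT3 ITD it was 5.53, 5.02, 5.54 and 5.67, and in the double mutant 5.56, 5.82, 5.73 and 5.69. The lowest of these, FLT3 ITD replicate 2, is the library whose levels were related to gene length. Src itself, at 406 mean CPM with CD45 and 366 without it, had a log2 fold change of -0.21 (SE 0.28), Lyn 0.07 (SE 0.10), Fyn 0.40 (SE 0.29) and Fgr 0.45 (SE 0.55). Csk, the kinase that phosphorylates the inhibitory tail, had 0.17 (SE 0.09), its adaptor Pag1 0.36 (SE 0.30), and the ubiquitin ligases Cbl 0.33 (SE 0.25) and Cblb -0.33 (SE 0.26). Yes1 was under 1 CPM in both sets.

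Among the tyrosine phosphatases only Ptprc passed. Of 16 measured, 8 had a positive and 8 a negative log2 fold change, 1 was called (Ptprc), and 13 had opposite signs in the 2 backgrounds, a share near the 72.0% of all genes. Ptprs, a receptor phosphatase, had the smallest p of the rest, at 91.6 and 140 mean CPM (log2 fold change 0.57, SE 0.18, adjusted p = 0.874 in edgeR). Ptpn6 (SHP-1), which counteracts ITAM signals, had 0.11 (SE 0.11), Ptpn11 0.16 (SE 0.11) and Ptpn22 -0.09 (SE 0.22). Ptpro, a receptor phosphatase of osteoclasts, had -0.39 (SE 0.16) in WT and 0.63 (SE 0.16) in FLT3 ITD.

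Receptors and adaptors upstream of these kinases were read against the same 72.0% of all genes. Of 19 ITAM signalling genes 16 had opposite signs, and all 13 inhibitory receptor genes did, with medians of -0.22 in WT and 0.66 in FLT3 ITD. The inhibitory receptor median in WT was 0.050 without WT replicate 3 and -0.85 without Ptprc KO replicate 4, and that in FLT3 ITD was 1.53 without FLT3 ITD replicate 4 and 0.31 without double-mutant replicate 2. Pirb, an inhibitory receptor, had a log2 fold change of 0.27 (SE 0.20), and Sirpa 0.15 (SE 0.15). Of 18 RANK, NFATc1 and AP-1 genes 15 had opposite signs, with a median of -0.01, and 0 genes of these 3 lists were called.

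Of the 22 pathway lists, 4 had medians of 1 sign in both backgrounds: cholesterol synthesis, inflammatory genes, NRF2 targets and receptor kinases. Cholesterol synthesis genes were negative for all 15 measured (median -0.25; -0.23 in WT and -0.24 in FLT3 ITD; 10 had the same sign in both), with 0 called. Their mean log2 CPM was 4.80, 5.30, 5.35 and 6.22 in WT and 4.73, 5.41, 5.63 and 5.03 in Ptprc KO. WT replicate 4 lay above all of these, and without it the cholesterol median in WT was 0.040 and that over the 8 against 8 libraries -0.10. The cholesterol median in FLT3 ITD ranged from -0.51 without double-mutant replicate 2 to -0.064 without double-mutant replicate 1. Fdps, which makes farnesyl diphosphate, had -0.56 (SE 0.34), and Hmgcs1, an early enzyme of the pathway, -0.35 (SE 0.27).

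Inflammatory genes were positive for 13 of 14 (median 0.67; 0.44 in WT and 0.90 in FLT3 ITD), with 12 of one sign in both and 0 called. Their mean log2 CPM was 0.85, 0.39, 2.53 and 1.13 in WT and 0.77, 0.91, 0.61 and 3.38 in Ptprc KO. In FLT3 ITD it was 1.11, 1.43, 1.12 and 3.46, and in the double mutant 2.56, 4.36, 1.41 and 1.86. Without Ptprc KO replicate 4 the inflammatory median in WT was -0.84, and without double-mutant replicate 2 that in FLT3 ITD was -0.76, so each positive sign rested on 1 library. Over the 8 against 8 libraries the median was 0.083 and 0.055 without them. Ptprc KO replicate 4 and double-mutant replicate 2 also held the highest summed monocyte and macrophage markers of their groups, 19925 and 28110 CPM, whose part in the result was not tested. Nos2, the inducible nitric oxide synthase, had 1.79 (SE 0.86) but -0.40 in WT and 4.14 in FLT3 ITD, and Ccl3, a chemokine, 0.78 (SE 0.43).

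NRF2 targets had medians of 0.15 in WT and 0.043 in FLT3 ITD, and receptor kinases 0.069 and 0.13. Each of these changed sign when 1 library was left out: the NRF2 median in WT was -0.70 without Ptprc KO replicate 4 and that in FLT3 ITD -0.46 without double-mutant replicate 2, and the receptor kinase medians were -0.024 and -0.60. Class II antigen presentation genes were positive for 10 of 11 (median 0.51), but their median was -0.082 in WT and 0.56 in FLT3 ITD and only 5 had the same sign in both. The class II median over the 8 against 8 libraries was -0.07 without double-mutant replicate 2.

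**Figure D4:**
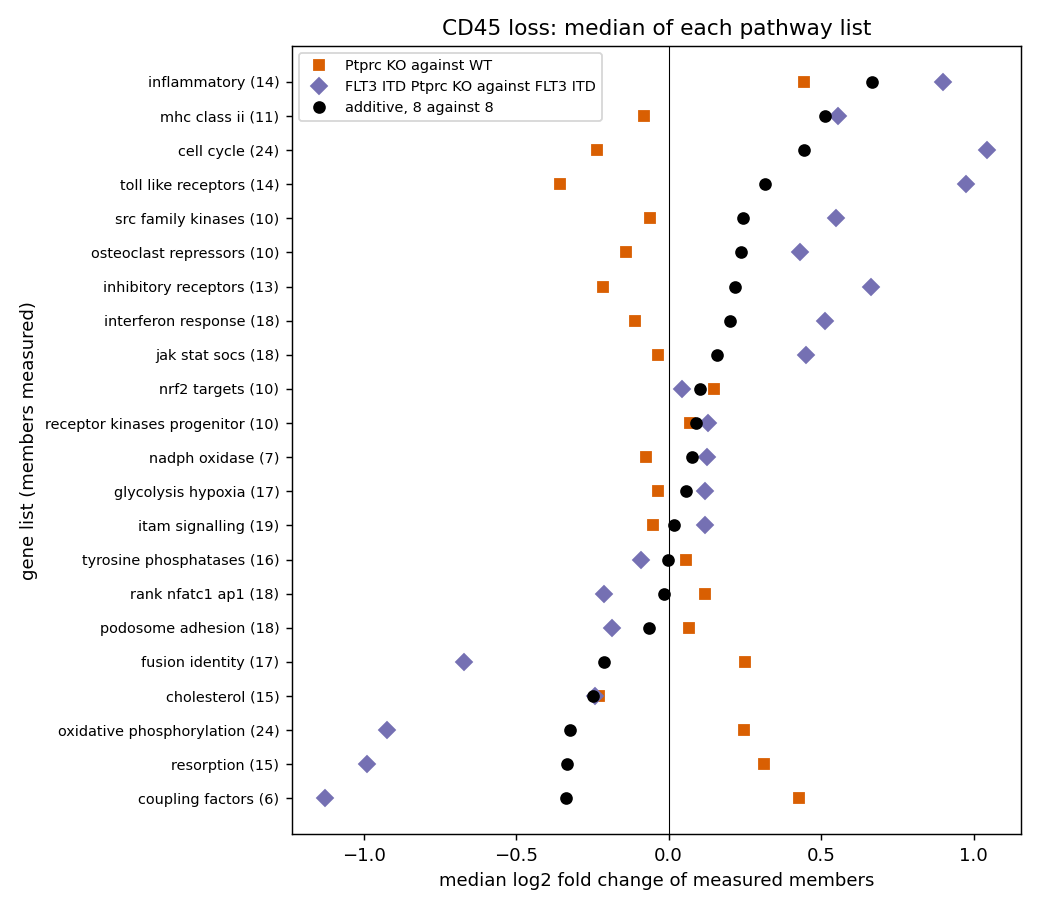
Median log2 fold change of CD45 loss for each of the 22 pathway lists, in the WT background, in the FLT3 ITD background and over the 8 against 8 libraries, with the number of members measured in brackets. Cholesterol synthesis, inflammatory, NRF2 target and receptor kinase genes lie on 1 side of 0 in all 3, and resorption, oxidative phosphorylation and cell cycle genes on opposite sides in the 2 backgrounds.

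Genes near Ptprc on chromosome 1 had small p more often than others over the 8 against 8 libraries and in the WT background, but not in the FLT3 ITD background, read with no test. Within 5 Mb of Ptprc, 4 of 39 genes had an unadjusted p under 0.05 (10.3%, all higher), between 5 and 20 Mb 8 of 107 (7.48%, 3 higher and 5 lower), on the rest of the chromosome 14 of 575 (2.43%) and on other chromosomes 165 of 11367 (1.45%). In the WT background these shares were 10.3%, 8.41%, 2.26% and 0.66%, and in the FLT3 ITD background 25.6%, 25.2%, 28.3% and 25.5%. The 4 near ones were Ddx59 at 1.62 Mb, Zfp281 at 1.43 Mb, Ipo9 at 2.63 Mb and Nav1 at 2.46 Mb, of which Nav1 was chosen after its values were seen. Zfp281, a zinc finger transcription factor gene, stood at 31.8 to 39.8 CPM with CD45 and 35.9 to 59.3 CPM without it. Ipo9, encoding a nuclear import receptor, stood at 26.3 to 63.6 CPM with CD45 and 55.0 to 175 CPM without it. Of the genes named by p, Abl2 (18.4 Mb) and Sec16b (19.3 Mb) lie between 5 and 20 Mb from Ptprc, as does Fam20b (18.5 Mb), chosen after its values were seen. Also among the genes named by p, Glrp1 (49.6 Mb) and Ugt1a8 (49.8 Mb) lie farther off on the same chromosome. So does Rbm44 (46.9 Mb), which like Glrp1 was called within WT and was also called for the interaction. The part of chromosomal position in these results was not tested.

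**Figure D5:**
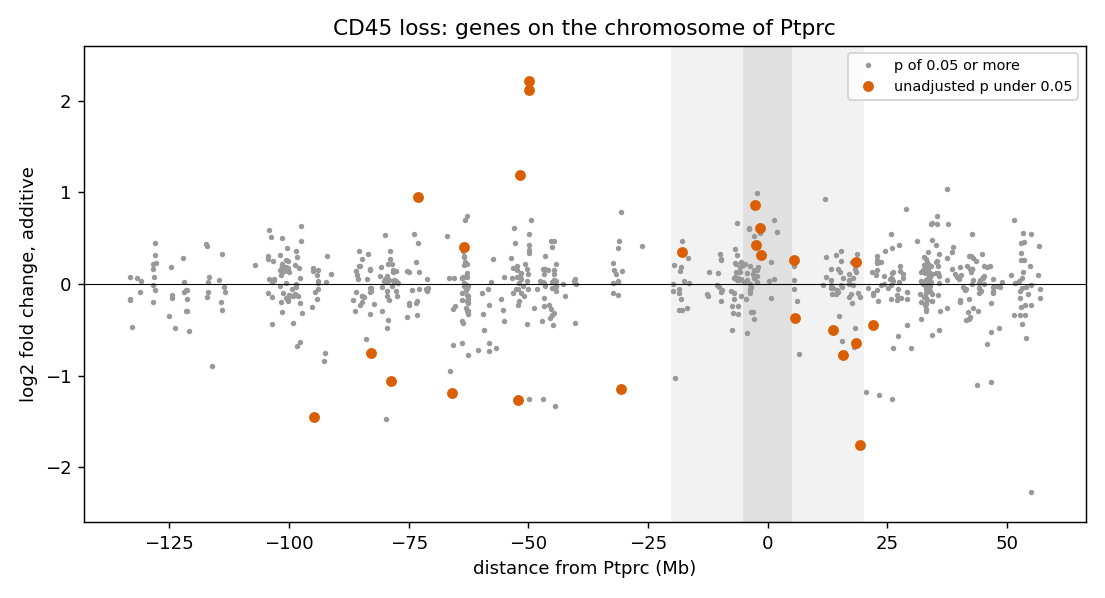
Log2 fold change over the 8 against 8 libraries against distance from Ptprc for genes of chromosome 1, with shading for 5 and 20 Mb; 2 genes lie beyond the axis. Within 5 Mb the 4 genes with an unadjusted p under 0.05 are all above 0.

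Flt3, the other altered gene, was barely detected, at 1 to 41 counts in a library, with a log2 fold change of -0.41 (SE 0.46). Of the cell type lists, the neutrophil list (10 of 12 measured) had a median of 0.85 in WT and -1.83 in FLT3 ITD, and the stromal list (6 of 12) -2.22 and 0.59. The neutrophil median in WT was -0.54 without Ptprc KO replicate 4 and that in FLT3 ITD -0.63 without FLT3 ITD replicate 4, and the stromal median in FLT3 ITD was -0.080 without double-mutant replicate 4. Cdh5, an endothelial gene, was higher in both backgrounds at under 1 CPM, and the summed endothelial list was 15.2 to 56.6 CPM with CD45 and 18.02 to 69.6 CPM without it.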

How the data were processed

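RNA was measured in 16 libraries that, per the labels' protocols, started from poly(A)-selected RNA (500 ng input) and used a directional kit with UMI adaptors (unique molecular identifiers). The authors deposited whole-number counts per gene without normalization and a second table of TPM, which corrects for gene length and depth. Per the submitters' processing notes, the tools were STAR 2.7.6a, featureCounts 2.0.3, UMI-tools 1.1.1, cutadapt 4.2 and bcl2fastq 2.20.0.422 and the build GRCm38.p6. Their order, settings and use of strand are not given in the sources used here. Gene positions came from GENCODE M21 of the same build, in which 21894 of 21936 gene IDs were found.

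The main test was the quasi-likelihood F test of edgeR 4.0.16 (R 4.3.3; filterByExpr by group, TMM, robust quasi-likelihood fit, two-sided, Benjamini-Hochberg, threshold 0.05), with Ptprc and FLT3 ITD status as terms (13 residual degrees of freedom; common dispersion 0.148, a coefficient of variation of 0.385). Effects within each background and the interaction came from a fit of the 4 group means (12 residual degrees of freedom). A standard error is the absolute log2 fold change divided by the root of F. CPM use TMM-scaled library sizes, and a prior count of 2 was added for log2 CPM. Where a group had 0 counts, 3 counts over the group served as the floor of a fold. Intervals cover counting error only.

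The sets, the lists (22 pathways, 13 cell types) and the rule for named genes were chosen with earlier results of these data known. The rule took Ptprc and Flt3, then up to 20 genes by p with the same sign in both backgrounds and at least 1 CPM in the higher set (predicted gene models and Y-linked genes left out), the Src-family kinase and phosphatase lists, and up to 4 members of each other list. Some results that this rule covers are not reported here. The script was tested on simulated data. Alternatives were other scaling, filters and tools (DESeq2 1.42.0, limma 3.58.1 with voom, limma on log2(TPM + 1) and log2(TPM + 0.1)), other covariates including 1 surrogate variable (sva 3.50.0) and a replicate block, summed or left-out libraries, and genes near Ptprc left out.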

Additional observations from a re-analysis of the deposited data

Results flagged for a closer look

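Among the 20 genes named by p, 79 groups of 4 libraries were checked for 1 library far from the other 3, and 7 were so marked. Chance marks about 5% of groups of normally spread values. A group with 0 counts in 3 libraries and any in the other is always marked, as for Ugt1a8 and Glrp1 below, so the 5% does not apply there. Ptprc stood at 412 CPM in WT replicate 2, against 464 to 472 CPM in the other WT libraries. Ugt1a8 stood at 0.0832 CPM in FLT3 ITD replicate 4 and at 1.11 CPM in double-mutant replicate 3, with 0 counts in the other libraries of each group. Glrp1 stood at 0.0357 CPM in Ptprc KO replicate 4, with 0 in the other 3. Akr1c12 stood at 4.17 CPM in double-mutant replicate 3, against 1.83 to 2.16 CPM in the others. Ipo9 stood at 26.3 CPM in FLT3 ITD replicate 2, against 52.4 to 53.4 CPM in the others. Dach1 stood at 0.847 CPM in double-mutant replicate 3, against 0.123 to 0.210 CPM in the others. The double mutant held 3 of the 7, all in replicate 3, with the Ugt1a8 mark among them.

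The effect of CD45 loss on Rbm44, which encodes an RNA-binding protein, differed between the backgrounds, with an interaction log2 fold change of 6.54 (SE 0.88, adjusted p = 0.031, edgeR quasi-likelihood test). It had 86 counts over the 4 WT libraries and 1 over the 4 Ptprc KO libraries, and mean levels of 0.391 CPM in FLT3 ITD and 0.718 CPM in the double mutant. In 12 of the 16 fits that left out 1 library, 0 genes were called for the interaction.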

How the results depend on the processing

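Over the 8 against 8 libraries Ptprc was lower, and past the threshold, in the 34 of 36 alternatives that tested it. The 2 without it left out chromosome 1 or the genes within 20 Mb of Ptprc. The cause of the other changes was not tested. DESeq2 gave 4 genes higher and 9 lower over the 8 against 8 libraries, 10 of them moved in both backgrounds, 11 called within WT, 984 within FLT3 ITD and 165 for the interaction. Voom with quality weights gave 7 higher, 5 lower, 10 in both, 482 in WT, 6999 in FLT3 ITD, 7283 for the interaction and 80.2% opposite signs. The share of opposite signs was 73.6% with library totals only, 70.6% with no filter and 73.8% with a mean count of at least 50, where 2 genes were called in WT and 0 for the interaction. The average of the 2 backgrounds gave 2 genes lower. With 1 surrogate variable there were 3 lower, 3 in both, 9 in WT and 66.4% opposite. The TPM table at a pseudocount of 1 and of 0.1 gave 2 genes in WT, 2 in FLT3 ITD and 0 for the interaction, with 77.9% opposite, and with no filter 7 in FLT3 ITD, 2 for the interaction and 73.5%. Summing FLT3 ITD replicates 1 and 3 gave 0 for the interaction and 71.0%, and 0 and 69.3% with replicate 2 also left out. Without chromosome 1 there were 0 lower, 0 in both, 1 in WT, 0 in FLT3 ITD and 0 for the interaction, and without genes within 20 Mb of Ptprc 0 lower, 0 in both and 0 in FLT3 ITD. Fitting only the 8 libraries of a background gave 2 in WT and 0 in FLT3 ITD, where Ptprc itself lost its call (log2 fold change -2.66, adjusted p = 0.164).

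Alternatives chosen after seeing the data left out FLT3 ITD replicate 4 and double-mutant replicate 3, which gave 1 gene higher, 3 lower, 4 in both, 8 in WT, 4058 in FLT3 ITD and 2459 for the interaction. Leaving out FLT3 ITD replicate 2 as well gave 3 lower, 3 in both, 8 in WT, 2678 in FLT3 ITD, 1766 for the interaction and 68.7% opposite. Each library left out in turn gave 0 to 1 genes higher, 1 to 2 lower, 1 to 3 in both, 2 to 7 in WT, 1 to 1798 in FLT3 ITD, 0 to 56 for the interaction and 58.4% to 74.5% opposite signs.

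The replicate block gave 2 genes lower, 2 in both, 1 in WT and 0 for the interaction. The correlation of same-numbered libraries' deviations ranged from -0.74 to 0.91 over 24 pairs (median 0.14). Over 72 pairs of different number it ranged from -0.85 to 0.88 (median -0.01). With ranges this wide, these values cannot decide whether libraries of 1 number belong together. Among the list medians, those of resorption, oxidative phosphorylation, cell cycle, cholesterol synthesis and inflammatory genes kept their sign in all 36 fits but not their size (-0.63 to -0.11, -0.46 to -0.027, 0.075 to 0.58, -0.43 to -0.10 and 0.055 to 1.14 in that order), and that of the tyrosine phosphatases changed sign in 18. The median SE of genes of at least 10 CPM was 0.15 on the log2 scale, which limits what could be detected.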

Other observations

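The principal components of the 1000 most variable genes placed little of the variance between the sets of 8. The first held 57.4% of the variance, 4.95% of which lay between libraries with and without CD45, and the fifth held 3.07%, of which 54.9% did. Rnf6, a ubiquitin ligase gene, and Fam20b, a xylose kinase gene, each separated 4 from 4 libraries in both backgrounds with small shifts: Rnf6 held 57.8 to 68.8 CPM with CD45 and 67.2 to 81.6 CPM without it, and Fam20b 61.3 to 85.0 CPM and 82.9 to 101 CPM. Both were chosen after their values were seen.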
